A study of Mus musculus with 4 samples.

Results

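Interleukin receptors and cytokine signalling genes are described here through 6 genes: Il1r1, Il1rn, Il1r2, Il3ra, Ccl5 and Socs5. They were picked from the study's list of genes that differed between NT-PGC-1α-expressing and control brown adipocytes, and each was found as 1 probe, so 6 of the 33012 probes on the array are concerned. No further probe carried a gene identifier in common with any of them. The cells were immortalized brown preadipocytes of FVB mice, transduced with lentivirus that carried NT-PGC-1α, a short splice form of the coactivator PGC-1α, or with the empty vector. Both groups were differentiated in the same way, by 2 days of induction with dexamethasone (2 µg/ml), isobutylmethylxanthine (0.5 mM), indomethacin (250 µM), insulin (20 nM) and triiodothyronine (1 nM), followed by 5 days in the last 2 of these. RNA was pooled within each group, and every pool was run on 2 ABI Mouse Genome Survey arrays, A and B, with a chemiluminescent readout. NT-PGC-1α was therefore overexpressed in a cultured cell line, the number of RNA samples in a pool was given as 3 by the methods and as 2 by the deposited description, and a group counts as 1 replicate.

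Because the 6 genes were chosen for their difference on these same arrays, their folds are a description and carry no test. A fold is the NT-PGC-1α pool against the empty vector pool after log2 transformation and quantile normalization across the 4 arrays, and its error is the range over the 4 pairings of an array of one pool with an array of the other. A probe was called when it differed at least 1.5-fold and neither array of one pool fell within the span of the other pool. This rule called 16.9% of all probes as higher and 17.6% as lower in the NT-PGC-1α pool. The Ppargc1a probe of the study's list, which reads the overexpressed gene, read 114 and 136 in the empty vector pool against 1078 and 714 in the NT-PGC-1α pool, in the direction of the labels. Array medians of the deposited signals lay between 395 and 448.

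Interleukin-1 is a proinflammatory cytokine that acts on cells through the type I receptor Il1r1, which recruits MyD88 and activates NF-κB and MAP kinases. Il1rn, the secreted receptor antagonist, occupies the same receptor without a signal, and Il1r2, the type II receptor, binds interleukin-1 but has no signalling domain and acts as a decoy. In adipocytes interleukin-1 is known to impair insulin action and to dampen the thermogenic programme. Il3ra is the ligand-binding chain of the interleukin-3 receptor, Ccl5 is a chemokine that attracts T cells and monocytes, and Socs5 is a suppressor of cytokine signalling with a SOCS box, known to restrain the interleukin-4 and EGF receptors.

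Il1r1 and Il1r2 are neighbours on mouse chromosome 1, with no protein-coding gene between them in RefSeq, and Il1rl2, Il1rl1 and Il18r1 follow Il1r1. Il1rn lies on chromosome 2 beside Il1f10, another gene of the interleukin-1 family. RefSeq promoter windows (GRCm38.p6) were found for 4 of the 6 genes, Il1r1, Il1r2, Il1rn and Il3ra, in 7 windows. The 250 bases before a gene start are shown for the 3 interleukin-1 genes, because 2 of them were lower and 1 was higher in the NT-PGC-1α pool. All 3 windows are on the plus strand, at chr1:40085843-40086092 for Il1r2, chr1:40224830-40225079 for the first of 2 starts of Il1r1 and chr2:24336610-24336859 for the first of 3 starts of Il1rn. Capitals mark matches to 2 motifs searched on both strands.
Il1r2: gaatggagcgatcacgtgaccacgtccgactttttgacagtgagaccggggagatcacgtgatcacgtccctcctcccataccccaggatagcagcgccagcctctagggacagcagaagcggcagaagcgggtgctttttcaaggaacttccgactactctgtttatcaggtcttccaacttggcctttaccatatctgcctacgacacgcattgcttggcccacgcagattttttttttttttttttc
Il1r1: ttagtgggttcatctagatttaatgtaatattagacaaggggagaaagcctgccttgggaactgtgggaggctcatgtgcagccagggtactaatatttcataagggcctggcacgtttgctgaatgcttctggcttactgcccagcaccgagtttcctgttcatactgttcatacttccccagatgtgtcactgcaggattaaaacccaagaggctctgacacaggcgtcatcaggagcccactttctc
Il1rn: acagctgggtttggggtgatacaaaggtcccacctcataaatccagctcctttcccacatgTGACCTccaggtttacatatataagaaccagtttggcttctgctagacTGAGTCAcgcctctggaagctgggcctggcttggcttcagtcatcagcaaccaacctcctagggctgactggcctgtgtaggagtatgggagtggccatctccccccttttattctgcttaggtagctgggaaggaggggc

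The motifs were the nuclear receptor half-site AGGTCA, since NT-PGC-1α acts through nuclear receptors, and the AP-1 form TGACTCA, since interleukin-1 activates AP-1 factors, and the 2 do not overlap one another here. The Il1rn window held 1 match to each, both on the opposite strand, with the half-site 189 to 184 bases and the AP-1 form 141 to 135 bases before the start. None of the other 6 windows of these genes held either motif. Of all 32851 promoter windows of the same length, 14.0% held the half-site and 4.46% the AP-1 form. A match is a run of letters and was not tested as a binding site.

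In the interleukin-1 system, the signalling receptor and the antagonist were lower in the NT-PGC-1α pool, whereas the decoy receptor was higher. Il1r1 (probe 492366, gene identifier mCG124823) had a normalized signal of 12437 and 11897 in the empty vector pool (arrays A and B, in this order throughout) against 6326 and 6383 in the NT-PGC-1α pool. The arrays of a pool lay close together and the 2 pools were far apart, a 1.91-fold lower signal with a range of 1.86 to 1.97 over the pairings. Il1rn (probe 778297, mCG4837.2) read 987 and 1014 in the empty vector pool against 504 and 483 in the NT-PGC-1α pool. Both NT-PGC-1α arrays were about as far below the empty vector arrays as for Il1r1, with a fold of 2.03 lower and a range of 1.96 to 2.10. Il1r2 (probe 321731, mCG8443.1) went the other way, from 213 and 192 in the empty vector pool to 401 and 485 in the NT-PGC-1α pool. Its signal was 2.18-fold higher, between 1.88 and 2.53 over the pairings, and the groups did not overlap.

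**Figure D1:**
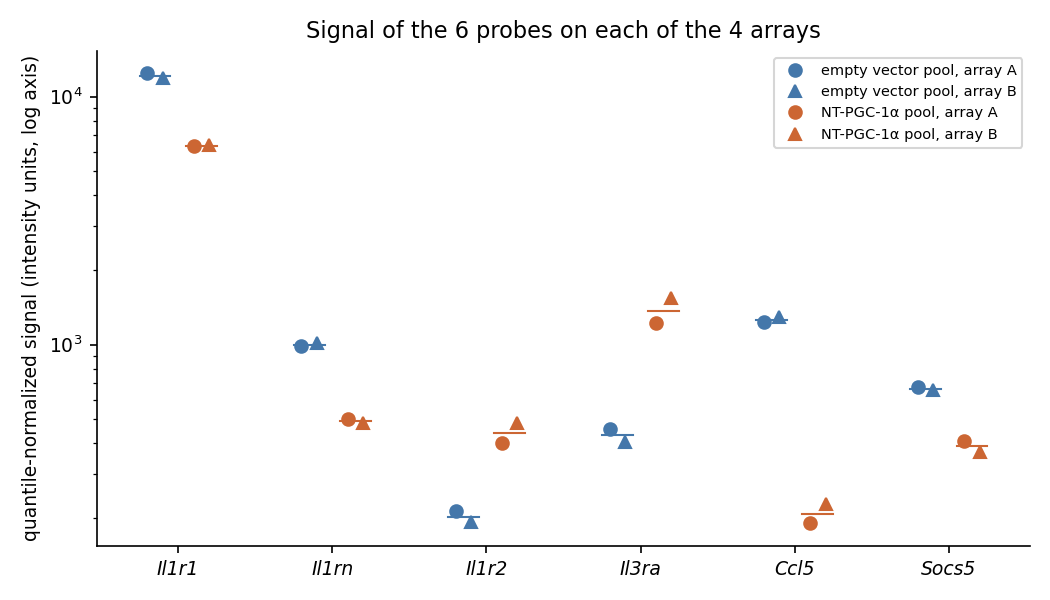
Quantile-normalized signal (intensity units, log axis) of the 6 probes on each array, with circles for array A, triangles for array B and a line at the geometric mean of each pool. Blue empty vector arrays lie above orange NT-PGC-1α arrays for Il1r1, Il1rn, Ccl5 and Socs5 and below them for Il1r2 and Il3ra. Heights are not comparable between probes.

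The opposite sides of Il1r2 and the other 2 genes follow from how they were picked. The log2 folds of Il1r1 and Il1rn were 0.08 apart, and their order turned in the lowest pairing of arrays, at -0.01, so that these 2 could not be ordered.

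The brightness of these 3 probes differed, and with it the technical error. Il1r1 was brighter than 86.8% of all probes with empty vector and than 81.1% with NT-PGC-1α. The probes were split by mean signal into 10 equal bins. In the bin of Il1r1, arrays A and B of one pool differed at least 1.5-fold for 0.333% of probes with empty vector and for 0.0303% with NT-PGC-1α, and 4.30% of probes were called lower between the pools. Il1rn was brighter than 63.4% of probes with empty vector and than 53.4% with NT-PGC-1α, in a bin where arrays of one pool differed 1.5-fold for 3.45% and 5.48% of probes and where 21.0% were called lower. Il1r2 was the dimmest with empty vector, brighter than 26.2% of probes, and moved to 51.4% with NT-PGC-1α. In its bin, arrays A and B differed 1.5-fold for 15.2% of probes with empty vector and 21.9% with NT-PGC-1α, and 28.1% of probes were called higher. The deposited file holds no measure of background, so it is not known whether Il1r2 was detected in the empty vector pool.

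**Figure D2:**
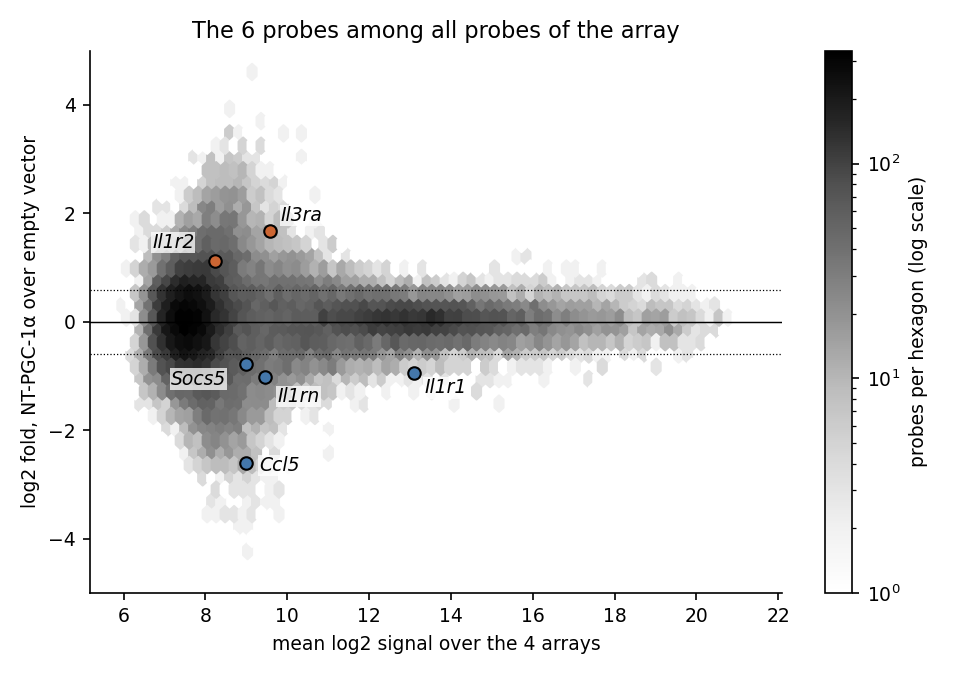
Log2 fold between the pools (vertical axis) against the mean log2 signal over the 4 arrays (horizontal axis) for all 33012 probes, as hexagons shaded by the number of probes on a log scale, with the 6 probes as circles and dotted lines at 1.5-fold. Il1r1 lies at a bright signal where the cloud is narrow, and the other 5 lie where it is wide.

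Il3ra (probe 446448, mCG16102.2) had the larger difference of the 2 receptors that were higher. It read 459 and 406 in the empty vector pool against 1225.0 and 1538 in the NT-PGC-1α pool. The NT-PGC-1α arrays were apart from each other by 1.26-fold, less than the gap to the empty vector arrays. The fold was 3.18 higher, with a range of 2.67 to 3.79 over the pairings, and 2.78% of all probes had a larger increase. The probe was near the middle of the array with empty vector, brighter than 50.9% of probes, and brighter than 66.9% with NT-PGC-1α. In its bin of mean signal, 21.1% of probes were called higher.

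Interleukin-3 signals through Il3ra together with a β chain, and mice have a β chain of their own for interleukin-3, Csf2rb2. The Csf2rb2 probe read 186 and 155 in the empty vector pool against 591 and 644 in the NT-PGC-1α pool, 3.64-fold higher, with a range of 3.18 to 4.16. The Csf2rb2 probe, dimmer than most probes with empty vector, was on the study's list, as was Il3ra. Both chains had therefore been selected for change on these arrays, and their shared direction is no independent evidence about the receptor. Downstream of β chain receptors act the transcription factors Stat5a and Stat5b, whose probes were named by RefSeq accession and were not on the study's list. Stat5a read 22975 and 24051 in the empty vector pool against 21469 and 20563 in the NT-PGC-1α pool, a fold of 0.894. For Stat5b the arrays of the groups overlapped, with 5805 and 5443 against 5358 and 5573. Neither reached the 1.5-fold threshold.

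Ccl5 (probe 516139, mCG11684.1) had the largest difference of the 6. It read 1230.4 and 1289 in the empty vector pool against 191 and 227 in the NT-PGC-1α pool. Both empty vector arrays were more than 5-fold above both NT-PGC-1α arrays, and the signal was 6.05-fold lower with NT-PGC-1α, from 5.41 to 6.76 over the pairings. A larger decrease was found for 0.512% of all probes. With empty vector the probe was brighter than 66.0% of probes and with NT-PGC-1α than 27.3%, a dim range in which the size of a fold is less certain. Whether Ccl5 was detected in the NT-PGC-1α pool is not known. In its bin, arrays A and B differed 1.5-fold for 10.7% of probes with empty vector and 19.2% with NT-PGC-1α, and 30.3% of probes were called lower. When 111.9, the 5th percentile of the deposited values, was added to each value ahead of the log transformation, it was 4.28-fold lower.

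Socs5 (probe 531427, mCG20412.1) had the smallest difference of the 6. It read 678 and 654 in the empty vector pool against 409 and 371 in the NT-PGC-1α pool, so that the groups did not overlap. The signal was 1.71-fold lower with a range of 1.60 to 1.83, and 12.9% of all probes had a larger decrease. It shared the bin of Ccl5. Under centring of each array on its 75th percentile it was 1.51-fold lower, just past the threshold. Interleukin-4 receptor Il4ra, which Socs5 is known to restrain, read 4819 and 5292 in the empty vector pool against 2104 and 1999 in the NT-PGC-1α pool, 2.46-fold lower. Jak1, a kinase bound to many interleukin receptors, gave 2633 and 2615 against 3514 and 3371, 1.31-fold higher and below the threshold. The Il4ra and Jak1 probes were on the study's list and had been selected for change on these arrays. Their directions are no independent evidence about Socs5.

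**Figure D3:**
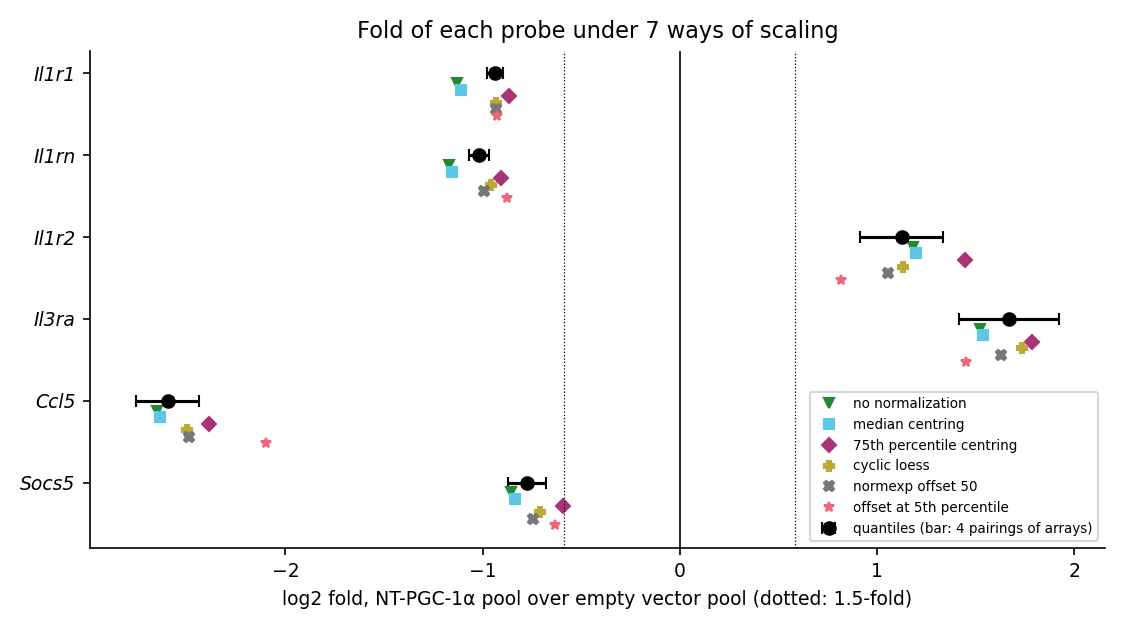
Log2 fold of each of the 6 probes (horizontal axis, NT-PGC-1α over empty vector) after quantile normalization, as a black point with a bar over the 4 pairings of arrays, and under 6 other ways of scaling as coloured symbols, with dotted lines at 1.5-fold. Il1r1, Il1rn, Ccl5 and Socs5 stay on the lower side and Il1r2 and Il3ra on the higher side of both dotted lines under all of them.

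The 6 genes were set beside the rest of their families by gathering named probes by the standard symbol stems of the interleukins, chemokines, interferons, colony stimulating factors, TNF family, their receptors and their JAK, STAT, SOCS, TRAF and NF-κB mediators. A symbol was at hand for 1635 probes, 1342 from the study's list of changed genes and 293 from RefSeq accessions, so most cytokine genes of the array could not be named and were not analysed here. This gave 38 further probes, of which 27 came from the study's list and were selected for change on these arrays, which makes them no independent evidence of direction. Genes of these families under other symbols, such as the TNF family ligand Eda, were not gathered. Of all 1342 probes of the study's list, 33.6% were called higher and 42.8% lower, 76.4% in either direction, and the shares below are to be read against these. Of the 38, 9 were called higher, 16 were called lower and 13 were not called. Their median log2 fold was -0.04, where that of all probes was 0.01. This median joins 2 unlike parts. The 27 probes of the study's list had a median of -0.73, where the whole list had 0.39. The 11 probes named by RefSeq accession had -0.03. Under centring on the 75th percentile, 12 of the 38 were called higher and 15 lower. Of the 11 probes named by RefSeq accession, 2 were called higher and 2 lower, and 34.4% of all probes were called in either direction. These 4, chosen after their values were seen, were Ifne and Tnfaip8l1, which were higher, and Lif and 1 of 2 probes of Ccl21b, which were lower. Tnfaip8l1 was gathered by the stem of its symbol alone and was not classed as a ligand, receptor or signalling gene. The 2 Ccl21b probes disagreed, with 1859 and 1902 against 710.0 and 672 for the first and overlapping groups at 172, 250.4, 211 and 222 for the second. Ccl21b has a near-identical copy in Ccl21a, whose groups also overlapped, at 149 and 119 against 144 and 208.

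Among the 18 ligand probes other than Ccl5, 11 were called lower and 3 were called higher, with a median log2 fold of -0.80. The share called lower was 17.6% of all probes and 42.8% of the study's list. From that list came 11 of the 18, of which 9 were called lower and 2 higher, so most of the count was selected for change. The 7 ligand probes named by RefSeq accession were divided into 2 called lower, 1 called higher and 4 not called. Of all probes so named, 17.1% were called lower. Cxcl10, an interferon-inducible chemokine that attracts T cells, read 712 and 704 in the empty vector pool against 122 and 130 in the NT-PGC-1α pool, 5.62-fold lower. With NT-PGC-1α it was brighter than only 6.91% of probes, so its detection there is not known and the size of the fold is uncertain. Ccl2, the main monocyte attractant, read 4102 and 4162 in the empty vector pool against 1556 and 1756 in the NT-PGC-1α pool, 2.50-fold lower. Both arrays of the NT-PGC-1α pool were far below the empty vector arrays for each of these chemokines. Il17e, also called interleukin-25, was highest of the ligands, at 147 and 199.6 in the empty vector pool against 891 and 1273 in the NT-PGC-1α pool, 6.22-fold higher from a signal brighter than 18.6% of probes. Ccl25, a thymic and intestinal chemokine, was 2.16-fold higher.

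Of 11 receptor probes other than Il1r1, Il1r2 and Il3ra, 4 were called higher, 4 were called lower and 3 were not called, with a median log2 fold of 0.42. Of these 11 probes, 10 came from the study's list, whose 1342 probes had a median log2 fold of 0.39. The share of the 10 that was called was near that of the list. Il8ra and Il8rb, the 2 chemokine receptors now called Cxcr1 and Cxcr2, lay on opposite sides, 3.99-fold higher and 3.66-fold lower. Il12rb1, a chain of the interleukin-12 and interleukin-23 receptors, was 4.44-fold lower, from 837 and 640.2 to 158 and 173, a signal brighter than 16.9% of probes. Il18bp, a secreted binding protein that neutralizes interleukin-18 as Il1rn blocks interleukin-1 action, gave 889 and 925 against 477 and 432, 2.00-fold lower.

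Within the cell, 7 probes of signalling genes other than Socs5 were named, of which 1 was called higher and 6 were not called. All but those of Stat5a and Stat5b came from the study's list, where 76.4% of probes were called, against 34.4% of all probes. That list took in increases at a lower fold than decreases, so the higher signals of its probes are no independent evidence of direction. Nkiras2, which restrains NF-κB through its inhibitor IκB, was called, at 1185 and 1192 in the empty vector pool against 2259.7 and 2159 in the NT-PGC-1α pool, 1.86-fold higher. Its relative Nkiras1 was 1.40-fold higher and Traf2, an adaptor of TNF receptors, was 1.44-fold higher, both just under the threshold. Their groups did not overlap, which held for 71.7% of all probes. The 36 partners listed for the 6 genes took in related genes that are not direct partners, such as Ccl2, Cxcl10 and Il18bp. Of the 36, 11 had a named probe, and of these 2 were called higher, 4 were called lower and 5 were not called. Of the 11, 9 came from the study's list, among them all 6 that were called. These were 66.7% of the 9, where 76.4% of the list was called, so the count is no result about the partners. Interleukin-1 itself, the accessory receptor chain, MyD88, the IRAK kinases and the receptors of Ccl5 had no named probe and were not analysed here.

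**Figure D4:**
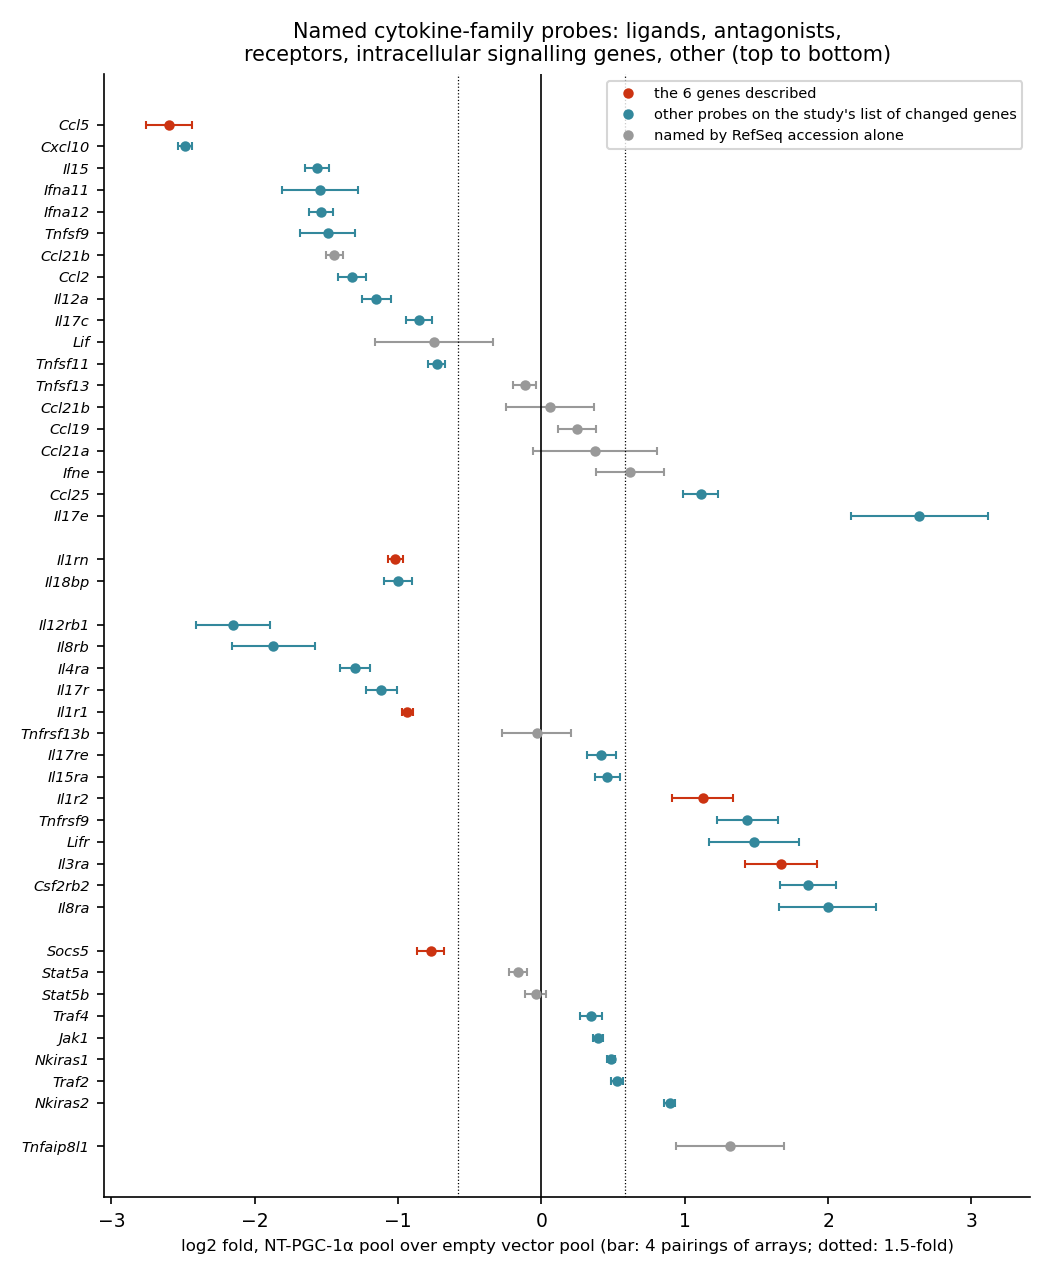
Log2 fold (horizontal axis, NT-PGC-1α over empty vector) of 44 named probes of cytokine families, grouped from top to bottom as ligands, antagonists, receptors, intracellular signalling genes and other, with bars over the 4 pairings of arrays and dotted lines at 1.5-fold. The 6 genes described are red, other probes of the study's list are blue-green and probes named by RefSeq accession are grey. Most ligands lie to the left, and receptors lie on both sides.

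Markers of cell types were named from the study's list alone, so those at hand had been selected for change on these arrays and their counts are no evidence about a cell type. Of 8 preadipocyte and fibroblast markers, 3 had a named probe, and all 3 were called lower. Thy1 read 4294 and 3950.2 in the empty vector pool against 463 and 496 in the NT-PGC-1α pool, 8.59-fold lower, and Col1a1 and Col3a1 had log2 folds of -0.67 and -0.59. Their summed signal was 406020.0 and 447692 in the empty vector pool against 268619 and 287213 in the NT-PGC-1α pool, most of it from the Col3a1 probe. Of 10 macrophage markers, 3 had a named probe. Cd68 was 2.43-fold lower, Lyzs was 1.97-fold lower, and Cd14 had 431 and 399 against 582 and 554. The summed macrophage signal was 6517 and 6178 in the empty vector pool against 3694 and 3296 in the NT-PGC-1α pool, most of it from the Lyzs probe. Of 4 T cell markers, Cd8a alone was named, at 282 and 248 against 548 and 597. Of 15 brown adipocyte markers, Ppara alone was named, and it was 2.38-fold higher. A fold between the pools does not show what the cells are, so the labelled cell type could not be checked. No probe of the array was listed at 0, since the lowest deposited signal was 24.2. A signal above 0 therefore does not show that a marker was detected. Fewer cells of a type cannot be told apart from less RNA per cell in pooled RNA. The part of these markers in the lower Il1r1, Il1rn, Ccl5 and Socs5 signals was not tested.

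For each of the 6 probes, the 2 named probes of other genes with the most similar signals over the 4 arrays were found, by Euclidean distance of the normalized log2 signals, which takes in brightness as well as the difference between pools. Il1r1 was nearest to Gp9, a platelet glycoprotein (distance 0.0791), and Hmgn3, a nucleosome binding protein (0.142). Il1rn was nearest to Grik3, a kainate receptor subunit (0.0858), and Als2cr3 (0.141). Il1r2 was nearest to Kdm5c, a histone demethylase (0.224), and to the keratin Krt1-c29 (0.273), and Il3ra to Msi1h, an RNA binding protein (0.224), and Uxt (0.230). Ccl5 was nearest to Apod, a lipid carrier of the lipocalin family, at a distance of 0.195, with 1257 and 1335 in the empty vector pool against 186 and 200.4 in the NT-PGC-1α pool, and then to Cyp2d10 (0.260). Socs5 was nearest to Trim12c (0.309) and to Eda, a ligand of the TNF family (0.326).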

How the data were processed

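Total RNA, pooled within each group, was labelled with digoxigenin-11-UTP and hybridized to ABI Mouse Genome Survey arrays, which were read on a chemiluminescent analyzer of the same maker. The authors deposited an intensity for each of 33012 probes on 4 arrays, on a linear scale and not normalized across arrays; the submitters' processing notes name R 2.2.1. Whether background was subtracted is not given in the sources used here, and the signal to noise ratios, flags and normalized values that the methods mention were not used here. The study's list also holds fold changes and p-values of its own, which were not used.

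Intensities were log2 transformed and normalized by quantiles (R 4.3.3, limma 3.58.1), with no filter. Further steps used Python 3.11.15, numpy 2.4.6, pandas 2.3.3, scipy 1.17.1 and matplotlib 3.10.9, and the fold and call were tested on simulated data. Symbols came from the study's list or from RefSeq accessions (GRCm38.p6, names only), and 31377 probes had none. The 6 genes and all lists were chosen with earlier results of these data known. Named beside the 6 genes are Ppargc1a, partners of the 6 genes, the top 2 probes by fold on either side among ligands, receptors and signalling genes (the 6 genes included), 4 called probes named by RefSeq accession, and the 2 nearest probes of each gene; 1 probe of the families is not reported here and was left out of their counts. Replicate letters A and B mark arrays of 1 pool, so p-values are not given. The number of arrays limits the precision. Alternatives were 6 other scalings or offsets, a filter, other rules for a call and leaving out each array.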

Additional observations from a re-analysis of the deposited data

How the results depend on the processing

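The 6 probes kept their direction and their call in all 60 values under 10 alternatives (6 scalings or offsets and the removal of each array). All values in this paragraph are log2 folds unless called counts. Without normalization Il1r1 was -1.13 and Il1rn -1.17, and with median centring -1.11 and -1.15. Centring on the 75th percentile, which raised the median of all probes to 0.22, gave Ccl5 -2.39, Il1r1 -0.86, Il1rn -0.91, Socs5 -0.59 and Il1r2 1.44. Cyclic loess gave Il1rn -0.96. The offset at the 5th percentile gave Ccl5 -2.10, Il1r2 0.82, Il1rn -0.88, Il3ra 1.45 and Socs5 -0.63. Leaving out 1 array gave ranges of -2.81 to -2.52 for Ccl5, -1.07 to -0.98 for Il1rn, -0.87 to -0.71 for Socs5, -0.97 to -0.91 for Il1r1, 1.03 to 1.28 for Il1r2 and 1.55 to 1.86 for Il3ra. A filter at the array median left 5 of the 6, without Il1r2, and a 2-fold threshold left 4.

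Counts of all probes called higher and lower, 5565 and 5802, depended more on the setting. They were 9227 and 3759 under 75th percentile centring (71.1% of calls higher, against 49.0%), 2847 and 3109 with the filter, and 2746 and 2892 at 2-fold. A Student t-test was run on 2 arrays against 2, at an unadjusted threshold of 0.05 with 1.5-fold. The methods name this test for comparisons of groups in general and name none for the array p-values. It judges the difference of 2 pools by the spread of their arrays alone, and it called 3094 and 3428 with all 6 genes. After Benjamini-Hochberg adjustment it called 59 and 92 with 0 of the 6. Limma (adjusted threshold 0.05, with 1.5-fold) called 3306 and 3660 with all 6 genes and, with the array letter as a replicate block, 0 and 0 with 0 of the 6, a fit with 1 residual degree of freedom per probe. At an unadjusted p under 0.05 the blocked fit called 4667 and 5049 with all 6. The cause was not tested. The 6 genes came from a list that the study filtered by fold and p-value on these same arrays. Settings that call all 6 are therefore no further support for them. The letters were not taken to pair the arrays, since A minus B differences of the 2 pools correlated with r = -0.0185 across probes, although median deposited signals were higher on both A arrays (448 and 442) than on both B arrays (398 and 395). No further probe of the 6 genes was found, with or without identifier versions, so counts over such probes and means over probes of a gene were not run.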
